A study of Mus musculus with 2 samples.

Results

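The genes examined encode the heat shock proteins and their DnaJ co-chaperones. They were chosen by name: all genes whose platform symbol starts with Hspa, Hspb, Hspd, Hspe, Hsph, Hsp90 or Dnaj, which gave 58 of the 16390 named genes. Of these 58, 48 had a ratio at day 1 and 52 at day 3, and all 48 of the former were also measured at day 3. RNA came from bone marrow stromal cells of C57BL/6 mice, with 6 mice in the series, pooling not stated. The groups were unirradiated mice and mice examined at day 1 or day 3 after a total body dose of 9.5 Gy. Each time point was hybridised on 1 array, irradiated RNA in Cy3 against unirradiated RNA in Cy5, so the values have no replicate error and none was tested. The dyes were not swapped, so an effect of the dye cannot be told apart from one of irradiation. The method of isolating the stroma is not stated in the labels.

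The values are the ratio of the channels on a log2 scale (base assumed), with the median over all genes of each array set to 0. The labels do not name the numerator. Positive values are read as higher after irradiation, which is the likely direction: targets of p53, a factor that radiation activates, had a median of 1.57 at day 1 and 1.06 at day 3, above mitotic genes at 0.89 and -3.17. If the ratio ran the other way, every "higher" and "lower" would be exchanged. Genes are called higher or lower here when they differed at least 2-fold, a log2 ratio of at least 1 in size. As a gauge of measurement spread, different probes of a gene on the same array had a pooled SD of 0.76 at day 1 (85 genes) and 0.58 at day 3 (116 genes).

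Heat shock proteins bind unfolded protein chains and release them in cycles driven by ATP. In the cytosol HSP70 and HSP90 do most of this work, in the endoplasmic reticulum (ER) the HSP70 member BiP and the HSP90 member GRP94, and in mitochondria mortalin and the HSP60 chaperonin. DnaJ proteins carry a J domain that delivers clients to HSP70 and makes it hydrolyse ATP, while small heat shock proteins hold unfolded chains without using ATP. The cytosolic stress genes are induced by the transcription factor HSF1 through heat shock elements, and the ER genes by the unfolded protein response through ER stress elements.

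Both elements were looked for in the 250 bases before the start sites of the members, since they are the shared sequence features through which these genes are known to be switched on together. RefSeq promoter windows (GRCm38.p6) matched 47 of the 58 members by symbol. The ER stress element, searched as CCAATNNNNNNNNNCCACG on both strands, was found for 3 members, Hspa5, Hsp90b1 and Dnajc3, and in 0.113% of all 32817 windows. All 3 encode proteins of the ER lumen, a group to which 7 members with a window were assigned. The heat shock element, searched as GAANNTTCNNGAA on both strands, was found for Hspd1 and Dnajb6 and in 0.466% of all windows. Members are counted as genes and the background as windows, of which a gene can have several, so these figures are not of the same kind. The 5 upstream windows that hold a match are shown because these genes include the ER chaperones and the members with the lowest day 3 and the highest day 1 ratio. Capitals mark the matches, and each window is written 5′ to 3′ in the direction of the gene. Hspa5 is at chr2:34771840-34772089 (plus strand), Hsp90b1 at chr10:86705445-86705694 (minus), Dnajc3 at chr14:118937682-118937931 (plus), Hspd1 at chr1:55087933-55088182 (minus) and Dnajb6 at chr5:29735648-29735897 (plus).
Hspa5: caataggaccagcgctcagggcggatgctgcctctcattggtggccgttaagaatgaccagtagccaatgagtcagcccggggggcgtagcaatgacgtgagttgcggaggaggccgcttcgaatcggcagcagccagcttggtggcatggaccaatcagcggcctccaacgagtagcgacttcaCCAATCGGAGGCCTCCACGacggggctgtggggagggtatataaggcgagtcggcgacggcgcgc
Hsp90b1: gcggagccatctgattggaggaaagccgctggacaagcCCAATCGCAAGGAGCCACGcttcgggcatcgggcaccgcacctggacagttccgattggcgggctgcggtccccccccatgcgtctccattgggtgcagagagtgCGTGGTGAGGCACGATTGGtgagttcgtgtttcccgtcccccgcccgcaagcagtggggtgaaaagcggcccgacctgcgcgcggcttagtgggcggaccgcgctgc
Dnajc3: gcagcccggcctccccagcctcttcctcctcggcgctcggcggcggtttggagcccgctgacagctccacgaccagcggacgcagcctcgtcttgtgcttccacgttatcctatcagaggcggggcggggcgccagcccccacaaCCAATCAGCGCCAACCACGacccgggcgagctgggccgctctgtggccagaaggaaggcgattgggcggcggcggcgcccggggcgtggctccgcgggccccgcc
Hspd1: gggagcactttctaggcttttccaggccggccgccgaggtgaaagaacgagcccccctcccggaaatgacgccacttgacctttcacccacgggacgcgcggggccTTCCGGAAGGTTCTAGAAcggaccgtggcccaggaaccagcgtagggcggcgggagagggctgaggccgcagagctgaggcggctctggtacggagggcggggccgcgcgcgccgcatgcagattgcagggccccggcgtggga
Dnajb6: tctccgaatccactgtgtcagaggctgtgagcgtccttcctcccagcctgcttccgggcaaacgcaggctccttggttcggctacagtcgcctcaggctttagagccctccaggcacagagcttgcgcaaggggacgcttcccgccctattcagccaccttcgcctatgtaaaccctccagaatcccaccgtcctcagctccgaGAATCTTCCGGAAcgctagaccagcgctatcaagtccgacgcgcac
The match began 65 bases before the start of Hspa5 and 105 before that of Dnajc3, and Hsp90b1 had 2 matches, at 212 and 107 bases. In Hspd1 2 overlapping matches on opposite strands, beginning 144 and 139 bases before the start, form 1 longer run of alternating units. The match in Dnajb6 began 46 bases before the start site shown. A second start site of this gene, further downstream, shares it. A match of letters is not evidence of binding, and no array value bears on binding.

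Most chaperone genes stayed within 2-fold at both times, as did most of all genes. At day 1, 4 members were higher (Dnajb6, Hspa4, Dnajc5 and Dnaja1) and 3 lower (Dnajc11, Dnajc16 and Dnajb1), 14.6% of the 48 measured. Of all 10434 genes 30.7% passed, 19.6% as higher and 11.1% as lower. At day 3, 4 were higher (Dnajc12, Dnajb5, Hspb1 and Hspa2) and 2 lower (Hspd1 and Dnajc9), 11.5% of the 52 measured. Of all 11404 genes 14.2% passed, 7.35% as higher and 6.85% as lower. The median of the members was 0.06 at day 1 and 0.02 at day 3, and the median size of their ratios, sign aside, was 0.42 and 0.30, where all genes had 0.64 and 0.41. The split between higher and lower members depends on where 0 is placed. With ribosomal protein genes set to 0, which moves all genes by 0.51 and 0.52, it was 11 higher and 0 lower at day 1 (22.9% of members, 35.4% of all genes) and 9 and 0 at day 3 (17.3% and 24.8%). With the density peak of all genes at 0 it was 7 and 1 at day 1 (16.7% of members, 31.1% of all genes).

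**Figure D1:**
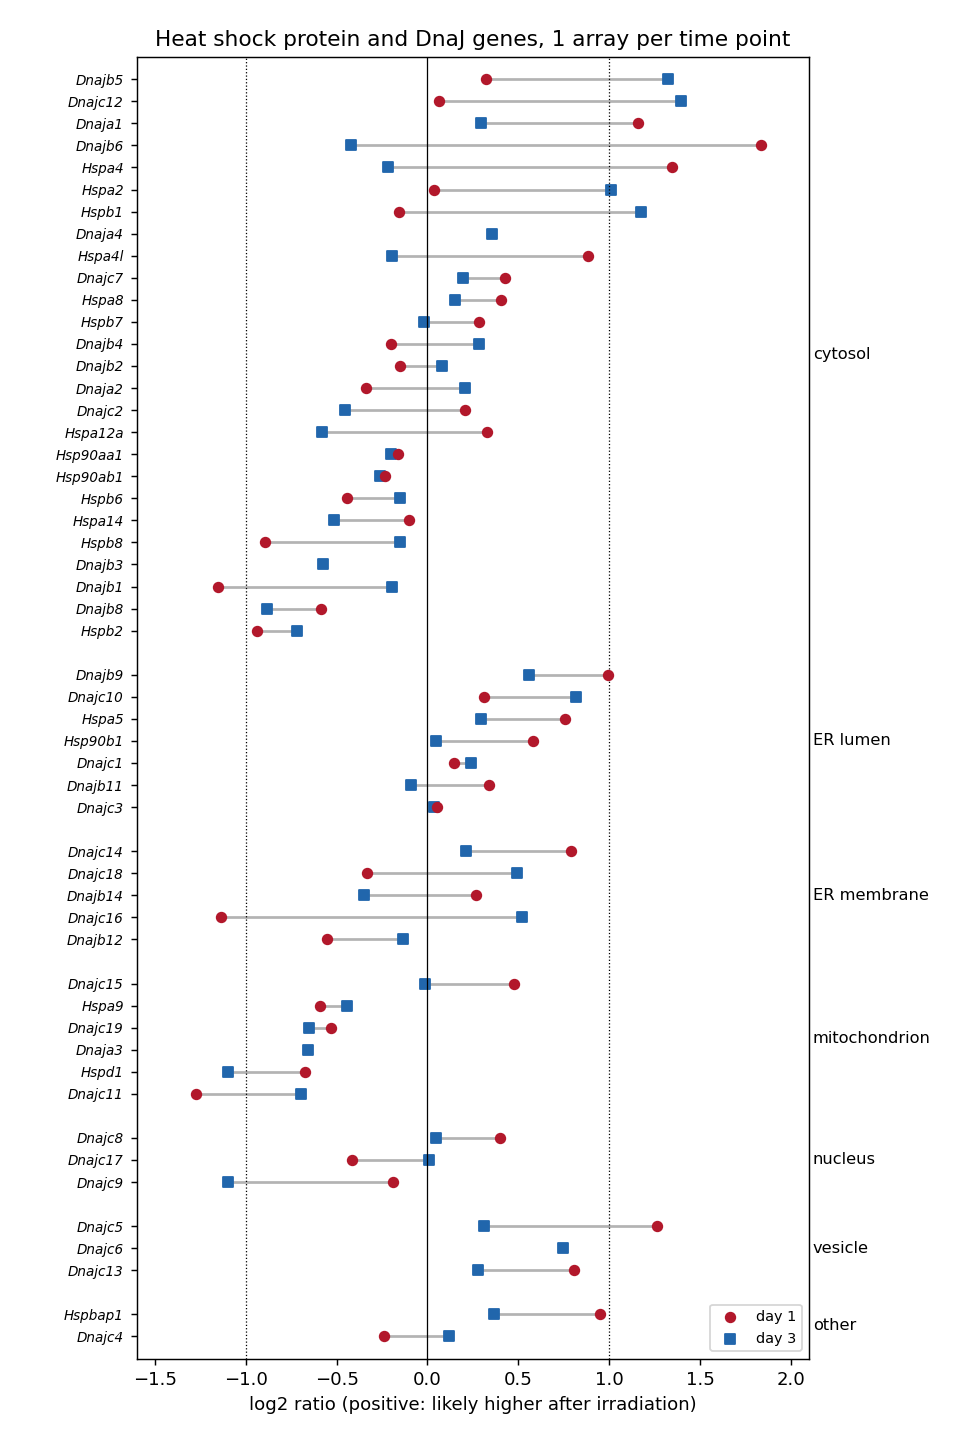
Log2 ratio of irradiated over unirradiated RNA (horizontal axis, likely direction) for the 52 chaperone genes with a ratio, grouped by the compartment of the protein. Circles are day 1, squares day 3, each from 1 array, and dotted lines mark 2-fold. All 7 genes grouped as ER lumen lie above 0 at day 1, and all 6 mitochondrial genes lie below 0 at day 3.

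The arrays also differed in their blood cell genes, which bears on every value here because a share of cells and a level per cell cannot be told apart in bulk RNA. All 18 measured granulocyte markers passed 2-fold upwards at day 1, from 4.07 to 8.28, and the 14 measured at day 3 ranged from -3.19 to 1.99. All 18 measured pan-leukocyte markers were higher at day 1 as well (1.36 to 8.17), and the 12 measured at day 3 lay between -3.09 and 0.93. Erythroid markers were lower at both times, with 9 of 10 at least 2-fold lower at day 1 and 10 of 12 at day 3. Of the stromal markers, the 13 mesenchymal ones with a ratio at day 1 had a median of -0.50 and the 11 at day 3 a median of 0.61. Osteoblast markers had medians of -1.13 (9 genes) and -0.50 (10 genes) and endothelial markers 0.46 (14 genes) and 1.70 (15 genes). The part of these cell types in the chaperone values was not tested.

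Among cytosolic chaperones the HSP110 genes had higher day 1 ratios than the HSP70 genes. HSP110 members release nucleotide from HSP70 and so reset its cycle. Hspa4 was at 1.34 at day 1, or 2.54-fold higher, and at -0.22 at day 3. Its relative Hspa4l was at 0.88 and -0.19. Both were therefore high at day 1 and slightly below the gene median at day 3. Hspa8, the constitutive HSP70 of the cytosol, was at 0.40 at day 1 and 0.15 at day 3, the means of 2 probes that gave 0.61 and 0.20 at day 1 and 0.39 and -0.09 at day 3. Those probes differ by more than the day 1 and day 3 means do. Hspa2, an HSP70 best known from male germ cells, was at 0.04 at day 1 and 1.01 at day 3, just past the size rule. Hspa14, which works at the ribosome, was at -0.10 and -0.52. Hspa12a, an atypical HSP70, was at 0.33 and -0.58. No probe was named here for the strongly heat-induced HSP70 genes Hspa1a and Hspa1b, or for Hsph1 and Hspe1, and Hspa1l had no ratio on either array, so the inducible arm of the family is only partly covered.

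The cytosolic HSP90 genes stayed near the gene median. Hsp90aa1, the stress-inducible form, was at -0.16 at day 1 and -0.20 at day 3. Hsp90ab1, the constitutive form, was at -0.23 and -0.26. Both forms thus lay within 1.2-fold of the gene median at both times.

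Of 5 measured small heat shock proteins, 4 were below the gene median on each array. At day 1 0 were past 2-fold and at day 3 1 was, where 30.7% and 14.2% of all genes passed. The signs depend on the centring. Ribosomal protein genes at 0 moved all genes up by 0.51 and 0.52. Only Hspb2 and Hspb8 at day 1 and Hspb2 at day 3 then stayed below 0. Hspb1, the HSP27 homologue that also binds actin, was at -0.16 at day 1 and 1.17 at day 3, or 2.26-fold higher. The other measured genes of this group are known mainly from muscle. Hspb2 was at -0.94 and -0.72. Hspb8, which acts with the co-chaperone Bag3 in selective autophagy, was at -0.90 and -0.15. Hspb6 was at -0.44 and -0.15, and Hspb7 at 0.28 and -0.02. The group median was -0.44 at day 1 and -0.15 at day 3, and no ratio was given for Hspb3 or Hspb9.

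Cytosolic DnaJ proteins, which choose the clients of HSP70, held the widest range of values. Dnajb6, a suppressor of protein aggregation, was the highest member on the day 1 array at 1.83, or 3.57-fold higher, and was at -0.42 at day 3. Dnaja1, a farnesylated partner of Hspa8, was at 1.16 at day 1, 2.23-fold higher, and at 0.29 at day 3. Dnajb1, the classical heat-induced HSP40, was in the opposite position at day 1, at -1.15 or 2.22-fold lower, and at -0.20 at day 3. The remaining high values came at day 3. Dnajc12, a co-chaperone of the aromatic amino acid hydroxylases, was at 0.06 at day 1 and 1.39 at day 3, 2.63-fold higher. Dnajb5 was at 0.32 and 1.32. Of the other J proteins, Dnaja2, a close relative of Dnaja1, was at -0.34 and 0.21. Dnajc7, which also binds HSP90, was at 0.42 and 0.20. Dnajc2, which works at the ribosome, was at 0.21 and -0.45. Dnajb2, Dnajb4 and Dnajb8 stayed within 2-fold on both arrays, and Dnaja4 (0.35) and Dnajb3 (-0.57) had a ratio only at day 3. Over the cytosolic compartment the median was -0.03 at day 1 (24 genes) and -0.15 at day 3 (26 genes). These medians have no stable sign: they were 0.48 and 0.37 with ribosomal protein genes at 0, and the means of the same genes were 0.081 and 0.036.

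Every ER lumen member was above the gene median at day 1. None of the 7 reached 2-fold at either time with the gene median at 0, where 30.7% and 14.2% of all genes did. With ribosomal protein genes at 0, 3 of the 7 were past 2-fold at day 1 and 2 at day 3, where 35.4% and 24.8% of all genes were. With the density peak at 0 or over genes on both arrays 1 was at day 1, where 31.1% and 28.8% of all genes were. Dnajb9, which binds BiP and the stress sensor IRE1, came closest at 0.99 at day 1 and was at 0.56 at day 3. Hspa5, which encodes BiP, the HSP70 of the ER, was at 0.76 and 0.30. Hsp90b1, which encodes GRP94, the folding factor of Toll-like receptors and integrins, was at 0.58 and 0.05. The remaining genes of this group lay closer to 0 at day 1. Dnajb11, a J protein of the BiP complex, was at 0.34 and -0.09. Dnajc10, a J protein with disulphide reductase activity, was at 0.31 at day 1 and 0.82 at day 3, the highest of the group at that time. Dnajc1, itself anchored in the ER membrane but counted here with the lumen genes, was at 0.15 and 0.24. Dnajc3, also known as p58IPK, was at 0.05 and 0.04. The 3 genes with a match to the ER stress element ranged from 0.05 to 0.76 at day 1, and a link to the match was not tested. The group median was 0.34 at day 1 and 0.24 at day 3, with 7 of 7 genes above 0 and then 6 of 7.

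Apart from Dnajc1, the J proteins anchored in the ER membrane did not share that position as a group. Dnajc16 was at -1.13 at day 1, 2.19-fold lower, and at 0.52 at day 3. Dnajb12, which helps degrade misfolded membrane proteins, was at -0.55 and -0.14, and its relative Dnajb14 at 0.26 and -0.35. Dnajc14 was at 0.79 and 0.21, and Dnajc18 at -0.33 and 0.49. The 5 values spread on both sides of 0 on each array, with medians of -0.33 and 0.21. Over all 12 ER genes, lumen and membrane together, the median was 0.29 at day 1 and 0.22 at day 3. On each array 9 of the 12 were above 0 and 3 below.

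The mitochondrial chaperones chosen by name lay below the gene median at both times, with Dnajc15 as the exception at day 1. Hspd1, the HSP60 chaperonin that folds imported proteins, was at -0.67 at day 1 and -1.10 at day 3, 2.14-fold lower. Hspa9, which encodes mortalin, the HSP70 that pulls proteins through the inner membrane, was at -0.59 and -0.44. Dnajc19, a J protein of the import motor, was at -0.53 and -0.65, and Dnaja3, the J protein of the matrix, was at -0.66 at day 3 with no ratio at day 1. Dnajc11, a J protein linked to the cristae organising complex, was the lowest member on the day 1 array at -1.27, 2.42-fold lower, and was at -0.69 at day 3. Dnajc15, which acts at the inner membrane, was at 0.48 and -0.02. Their median was -0.59 at day 1, from 5 genes, and -0.65 at day 3, from 6, with 4 of 5 and 6 of 6 genes below 0. Cytosolic ribosomal protein genes were also below 0, at medians of -0.51 and -0.52, so that with these at 0 the mitochondrial medians were -0.08 and -0.13.

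At each time the ER lumen median lay above the cytosolic and the mitochondrial ones. The ER median exceeded the mitochondrial median by 0.93 at day 1 and by 0.89 at day 3, and this gap does not depend on where 0 is placed. It was not tested. Among the members, the ER lumen and mitochondrial values overlapped only through Dnajc15, which stood above 4 of the 7 ER lumen genes at day 1 and above Dnajb11 at day 3. The ER membrane genes are left out of that comparison. All of them but Dnajc14 lay within the mitochondrial range at day 1, as did Dnajb12 and Dnajb14 at day 3. The ER median exceeded the cytosolic one by 0.37 and 0.39, within a cytosolic range of -1.15 to 1.83 at day 1 and -0.88 to 1.39 at day 3. The control RNA of both arrays may come from a single extract, so the day 1 and day 3 values are given side by side and are not independent of each other. Irradiated RNA was also in Cy3 on both arrays. A dye effect on a gene would recur at both times and cannot be told apart from irradiation.

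**Figure D2:**
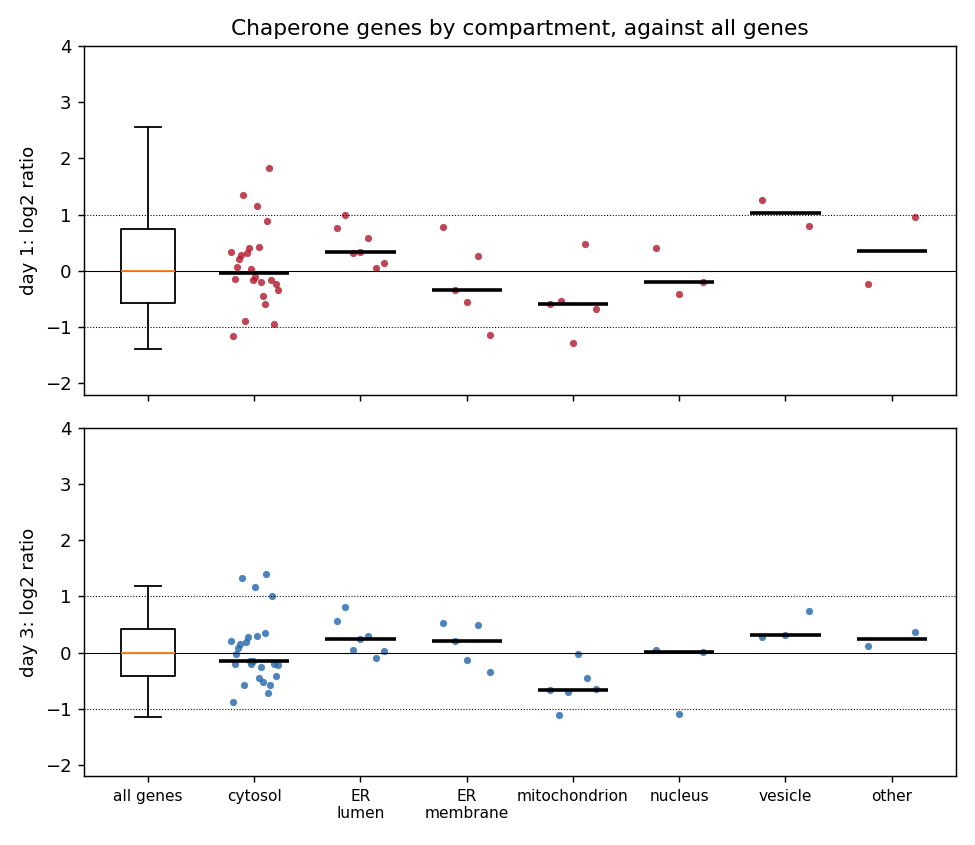
Log2 ratios of chaperone genes by compartment at day 1 (top) and day 3 (bottom), 1 point per gene and a bar at the median. The box shows the median and quartiles of all genes with whiskers at the 5th and 95th percentiles, and dotted lines mark 2-fold. The ER lumen medians (0.34 and 0.24) lie above and the mitochondrial medians (-0.59 and -0.65) below that of all genes.

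Of the vesicle J proteins 1 of 2 measured was past 2-fold at day 1, and of the nuclear ones 1 of 3 at day 3. Of all genes 30.7% and 14.2% passed at these times. Groups this small give no share that can be set against those. Dnajc9, a histone chaperone of dividing cells, was at -0.19 at day 1 and -1.09 at day 3, 2.13-fold lower. Mitotic genes had a median of 0.89 at day 1, where 11 of 23 were at least 2-fold higher. At day 3 their median was -3.17, and 16 of 18 were at least 2-fold lower. A link of Dnajc9 to these genes was not tested. Dnajc8, of the spliceosome, was at 0.40 and 0.05, and Dnajc17 at -0.41 and 0.01. Dnajc5, the cysteine string protein of secretory vesicles, was at 1.26 at day 1, 2.40-fold higher, and at 0.31 at day 3. Dnajc13, which acts on endosomes, was at 0.80 and 0.28 by 1 of its 2 probes, and Dnajc6, the clathrin uncoating factor auxilin, was at 0.75 at day 3 alone. All measured vesicle members therefore lay above 0. Hspbap1, an HSP27-associated protein, was at 0.95 and 0.36, and Dnajc4 at -0.24 and 0.12. Dnajb13, Dnajc5b and Dnajc5g had no ratio on either array.

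Between the time points 7 of the 48 members measured on both arrays differed at least 2-fold, or 14.6%. Of all 9800 genes 28.9% did, 12.1% as higher and 16.8% as lower at day 3. Relative to day 1, Dnajb6 (-2.26), Hspa4 (-1.56) and Hspa4l (-1.08) were lower at day 3. Dnajc16 (1.65), Hspb1 (1.33), Dnajc12 (1.33) and Dnajb5 (1.00) were higher at day 3, of which Dnajb5 fell short of 2-fold with the density peak at 0 (0.81). With the density peak of all genes at 0 the count was 3 higher and 7 lower, or 20.8% of members against 28.9% of all genes. Of the 2 members with a match to the heat shock element, Dnajb6 was the member that differed most and Hspd1 differed by -0.43. A link between the match and these values was not tested. The ER lumen genes differed by a median of -0.43, from -0.53 for Hsp90b1 to 0.51 for Dnajc10, and none of the 7 differed 2-fold. The mean of these differences was -0.18, and their median with current symbols -0.25. The mitochondrial genes differed by a median of -0.12 and the cytosolic ones by -0.04. On the same pair of arrays the 14 granulocyte markers measured on both were all at least 2-fold lower at day 3 than at day 1, by a median of -7.70.

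Genes listed as heat-inducible lay on both sides of 0. The list of 14 also holds Hspa8 and Hsp90ab1, named above as constitutive forms. Of the 14, 10 had a ratio, and those without one were Hspa1a, Hspa1b, Hsph1 and Hspe1. Their median was -0.18 at day 1 (Dnaja1 higher, Dnajb1 lower) and -0.17 at day 3 (Hspb1 higher, Hspd1 lower). At each time 20% of the 10 were past 2-fold, against 30.7% of all genes at day 1 and 14.2% at day 3. Regulators and co-chaperones outside the family were examined next. Of 22 measured at day 1, 2 were at least 2-fold higher (Sugt1 and Chordc1) and 1 lower (Bag2), or 13.6% against 30.7% of all genes, with a median of -0.29. Of 21 at day 3, 0 were higher and 1 lower (Bag2), or 4.76% against 14.2%, with a median of -0.07. By the mean of the available arrays, which ranks the genes of each related list here, Bag2, an inhibitor of the ubiquitin ligase Chip, was the lowest, at -2.78 at day 1 and -1.27 at day 3, followed by the HSP90 immunophilin Fkbp4 (-0.63 and -0.67). By the same mean Sugt1 (1.18 and 0.65) and Fkbp5 (0.96 and 0.65), both HSP90 partners, were the highest. Chordc1, another HSP90 partner, was at 1.18 and 0.33. Hsf1 itself was at -0.79 and -0.10.

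Genes of the other folding systems were followed in the same way. In the list of ER folding and unfolded protein response genes, 4 of 26 reached 2-fold higher at day 1 and 0 lower, or 15.4% against 30.7% of all genes, with a median of 0.25. At day 3, 0 of 25 were higher and 1 lower, where 14.2% of all genes passed, with a median of 0.13. By the mean of the available arrays Ero1a, an oxidase that supplies disulphide bonds, was highest at 2.88 and 0.92, followed by Edem1 (1.85 and 0.33), which sends misfolded glycoproteins to degradation. By that mean Atf6, a sensor of ER stress, was lowest at -0.84 with no ratio at day 3, followed by the disulphide isomerase P4hb (-0.71 and -0.71). The gene past 2-fold at day 3 was Ero1b, a relative of Ero1a, at -0.07 at day 1 and -1.01 at day 3. Mitochondrial proteostasis genes (12 genes) had medians of -0.59 and -0.27, with 1 at least 2-fold lower at day 1 (8.33%) and 0 at day 3. That gene was Timm44, which tethers mortalin to the import channel, at -1.14 and -0.53. By the mean of both arrays Grpel2, a nucleotide exchange factor of mortalin (-0.97 and -0.85), and the protease subunit Clpp (-0.998 and -0.80) were lowest, and Hscb (0.67 and 0.56) and Yme1l1 (0.73 and 0.30) highest. The cytosolic chaperonin TRiC and its partner prefoldin had medians of -0.26 and -0.30 over 11 genes, none of them past 2-fold. By the mean of both arrays Cct3 (-0.75 and -0.98) and Cct7 (-0.59 and -0.70) were lowest, and Vbp1 (0.56 and 0.04) and Pfdn2 (-0.17 and 0.10) highest.

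**Figure D3:**
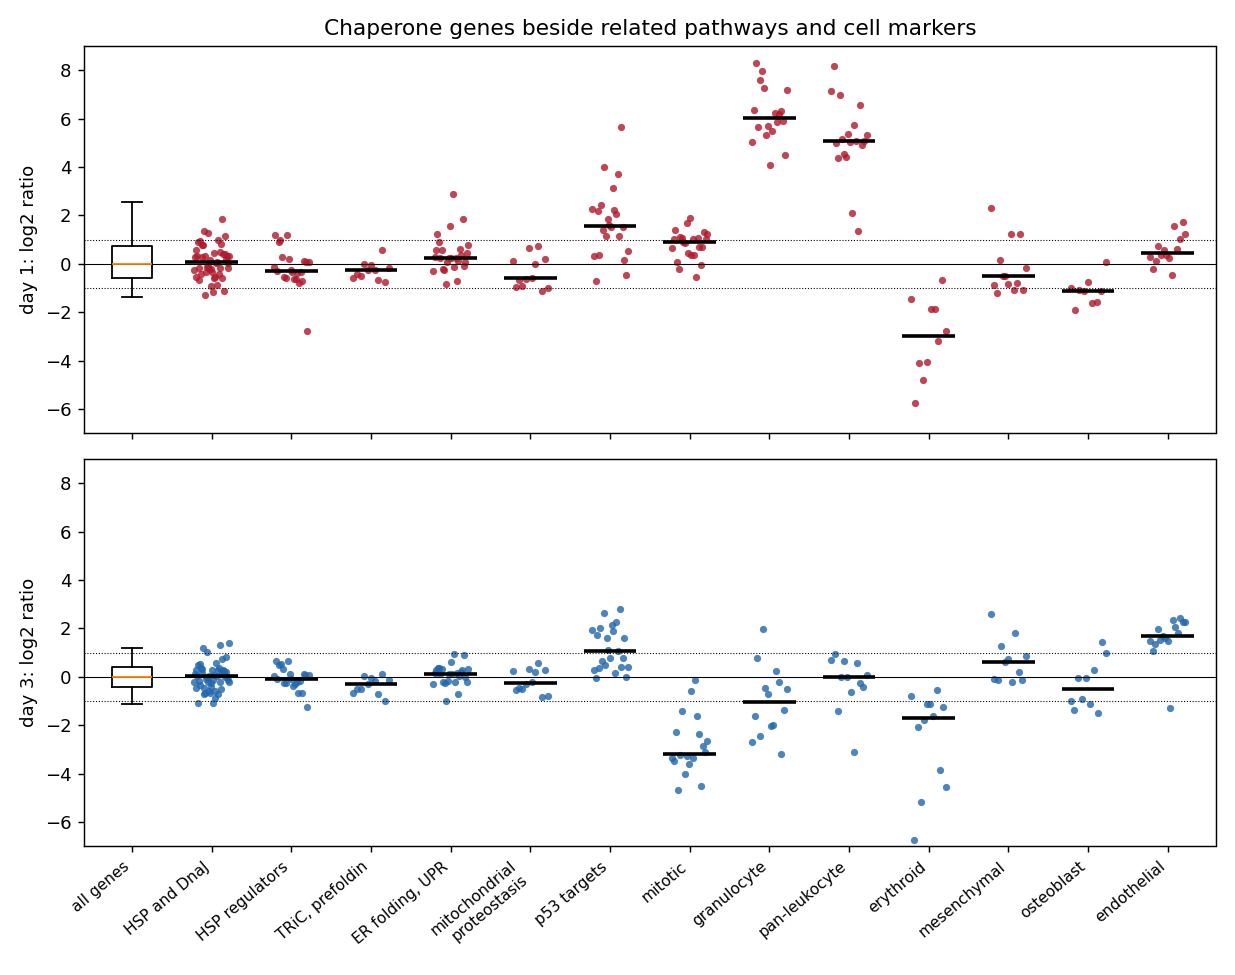
Log2 ratios of the chaperone genes beside lists of related folding genes, p53 targets, mitotic genes and cell type markers at day 1 (top) and day 3 (bottom), 1 point per gene and a bar at the median, with the box of all genes drawn at the quartiles and the 5th and 95th percentiles. The chaperone medians (0.06 and 0.02) stay near 0, whereas granulocyte markers had a median of 6.03 at day 1 and mitotic genes -3.17 at day 3.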

How the data were processed

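Transcript ratios were measured on 2-colour oligonucleotide arrays, 1 per time point. The deposited log2 values compare the channels of 1 array; per the labels Cy5 marked unirradiated and Cy3 irradiated RNA, amplified as amino allyl RNA. The log base, numerator, normalisation and background correction are not stated in the labels. As deposited, the median was 0.00035 for day 1 and -0.00013 for day 3. Ratios were missing for 40.5% (day 1) and 34.3% (day 3) of 23473 probes.

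A single symbol was available for 16631 probes and none for 6842. Older symbols were updated through RefSeq genes (GRCm38.p6), which changed 3947. Probes of a gene were averaged, and the gene median of each array (-0.01 at day 1, 0.02 at day 3) was subtracted. The steps were tested on simulated data with planted shifts larger than any member ratio and with less noise than the probe spread here. That test checks the steps and does not gauge the 2-fold rule at the sizes seen in these data. Python 3.11.15 and pandas 2.3.3 were used. Compartments were assigned by hand from textbook knowledge. The members and lists were chosen with earlier results of these data known. Values were given for every member past 2-fold on either array, for a fixed set of major chaperones, for the members nearest the size rule and at the ends of each compartment, and for the 2 highest and 2 lowest genes of each related list, ranked on their mean over the arrays with a ratio. The other members, Hsf1, Chordc1, Ero1b and Timm44 were added after their values were seen. Alternatives were other centrings, genes on both arrays only, current symbols, the largest probe, a 1.5-fold rule and means. No intensities were used here, so the number of arrays limits the precision.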

Additional observations from a re-analysis of the deposited data

Results flagged for a closer look

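5 members stood on opposite sides of the gene median at the 2 time points and differed by at least 2-fold between them. Which side of 0 they lie on depends on the centring: with ribosomal protein genes at 0, only Dnajc16 of the 5 (-0.62 at day 1 and 1.04 at day 3) had opposite signs, and with the density peak at 0 all but Hspb1 did. Each time point has 1 array, so the difference was not tested. Relative to day 1, Dnajb6 was lower by a log2 difference of -2.26, Hspa4 by -1.56 and Hspa4l by -1.08 at day 3. Dnajc16 was higher at day 3 by 1.65 and Hspb1 by 1.33. The part of blood cell content, whose markers also differ between the arrays, was not tested.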

How the results depend on the processing

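No paired analysis was possible because each time point has 1 array, and no replicate could be left out. The members past the size rule at day 1 (7) became 11 with ribosomal protein genes at 0. With a 1.5-fold rule the counts were 17 at day 1, 13 at day 3 and 18 for the difference between times (of all genes 53.7%, 35.4% and 50.7% passed). The cytosolic median of day 1 (-0.03) turned to 0.16 with the density peak at 0, 0.48 with ribosomal protein genes at 0, 0.023 over genes on both arrays and 0.081 as a mean. That of day 3 (-0.15) was 0.37 under the ribosomal centring and 0.036 as a mean, and that of the difference (-0.04) to 0.19 with current symbols. The ER and mitochondrial medians kept their sign under all alternatives run. With ribosomal protein genes at 0, Dnajb1, Dnajc11 and Dnajc16 at day 1 and Hspd1 and Dnajc9 at day 3 no longer reached 2-fold, nor did Dnajb1 (-0.96) and Dnajc16 (-0.94) at day 1 with the density peak at 0. The Dnajb5 difference between times missed 2-fold with the density peak at 0 (0.81) and with the largest probe (0.9996). Without intensities, signal over background could not be examined.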

Other observations

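The naming rule leaves out 8 genes of the same family that the platform lists under older names. Of the 6 with a ratio, Hspbp1, a nucleotide exchange factor of HSP70, was at -1.45 at day 1 and -0.90 at day 3. Dnajc27, a J protein with a Rab-like domain, was at -0.26 and -1.42. Hspa13, an HSP70 of the ER, was at 0.17 and 0.10, on the same side of 0 as Hspa5. Dnajc21, Dnajc24 and Hspb11 stayed within 2-fold on both arrays. With these genes included, 8 of 54 were past 2-fold at day 1, or 14.8% against 30.7% of all genes. At day 3, 7 of 58 were, or 12.1% against 14.2%. Cryab, the alpha B crystallin and a small heat shock protein with a name outside the rule, was at -1.01 at day 1 and 0.56 at day 3, and so stood on opposite sides of the gene median at the 2 times.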
